A study of Mus musculus with 24 samples.

Results

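The genes described here are 10 genes that muscle fibres use at, or in response to the state of, the neuromuscular junction: the acetylcholine receptor subunits Chrna1, Chrnb1, Chrnd, Chrne and Chrng, the receptor kinase Musk, the adhesion molecule Ncam1, and the transcriptional regulators Runx1, Hdac4 and Dach2. They were picked by symbol, with earlier results of these data known, and all 10 were found among the 18669 genes of the deposited count table. All 10 also passed the filter on low counts, which left 13754 genes for testing. RNA of quadriceps femoris muscle was sequenced from 24 mice, 2 in each of 12 groups of 3 genotypes and 4 treatments. All mice were on a CBA x C57BL/6 F1 background and were sampled 4 h after treatment. Wild type and R6/2 mice were 12 weeks old. The Hsf1-/- mice, which lack the heat shock transcription factor HSF1, were 10 weeks old in the heat shock experiment and 8 weeks old in the HSP990 experiment. R6/2 mice carry a transgene for the first exon of mutant human huntingtin and are a fast-progressing model of Huntington's disease, so they do not show what the full-length protein does. In the heat shock experiment anaesthetised mice were held at 41.5 °C for 15 min (HS) or at 36.9 °C for 21 min (control). In the HSP990 experiment mice received the HSP90 inhibitor HSP990 at 12 mg/kg or its vehicle. Control and vehicle mice are together called untreated.

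In healthy adult muscle the acetylcholine receptor is made from alpha, beta, delta and epsilon subunits and is packed under the nerve terminal, where a signal from the nerve through Lrp4 and Musk keeps it clustered. Fetal muscle and muscle that has lost its nerve use a gamma subunit in place of epsilon, and there the receptor genes are switched on along the whole fibre. In muscle that has been cut off from its nerve, Hdac4 is known to rise and to repress Dach2, a repressor of Myog, and the myogenin protein then activates receptor genes and Musk, while Runx1 rises and limits wasting.

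Library totals ranged from 22450177 to 46599238 counts. Hsf1 itself stood at 52.94 to 68.55 CPM (the count relative to the TMM-scaled size of its library) in the 8 wild type libraries, 45.28 to 53.71 CPM in the 8 R6/2 libraries and 21.08 to 28.96 CPM in the 8 Hsf1-/- libraries, so counts remained on this gene in the mice labelled as knockouts. Over 4 Y-linked genes the wild type and R6/2 libraries of the HS experiment held 0 to 4 counts and all other libraries 3916 to 9392. R6/2 and wild type mice were therefore alike in this respect within each experiment, but Hsf1-/- and wild type mice of the HS experiment were not. The TMM factors, which correct for a few genes taking a large share of the counts, lay between 1.19 and 1.395 for the R6/2 mice and between 0.8079 and 0.954 for the other genotypes. Markers of mature muscle fibres summed to 245300 to 281800 CPM in the 4 untreated wild type libraries and 59620 to 93730 CPM in the 4 untreated R6/2 libraries. Of these markers 12 of 13 fell in R6/2 mice by the test given below, beside 30.5% of all genes called in either direction. In whole muscle, fewer cells of a type and less RNA per cell cannot be told apart. The middle log2 difference over all tested genes, untreated R6/2 over wild type, was 0.05 on the TMM scale, which is used throughout unless stated, and 0.66 if only library size was scaled. At the latter scale 11 of the 13 fibre markers fell and 1 rose, beside 64.5% of all genes called in either direction.

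The main question was whether these genes differed between untreated R6/2 and wild type mice. Chrna1, Chrnb1, Musk and Runx1 were higher in R6/2 mice, by 3.65-fold, 1.91-fold, 2.58-fold and 5.23-fold, and none of the 10 genes was called lower. That makes 4 of 10 genes called, at an adjusted p below 0.05 in edgeR's quasi-likelihood test, beside 30.5% of all genes tested. In the upward direction the 4 genes stand beside 15.1% of all genes. Of the 4194 genes called, 2075 were higher, whereas library size as the only scale gave 8455 higher and 421 lower. The median log2 fold change of the 10 genes was 0.39, and that of all genes 0.05. Each of the 4 genes was also called with any of the 8 mice left out. With library size as the only scale 7 were called higher, the others being Chrnd, Ncam1 and Hdac4, beside 64.5% of all genes.

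**Figure D1:**
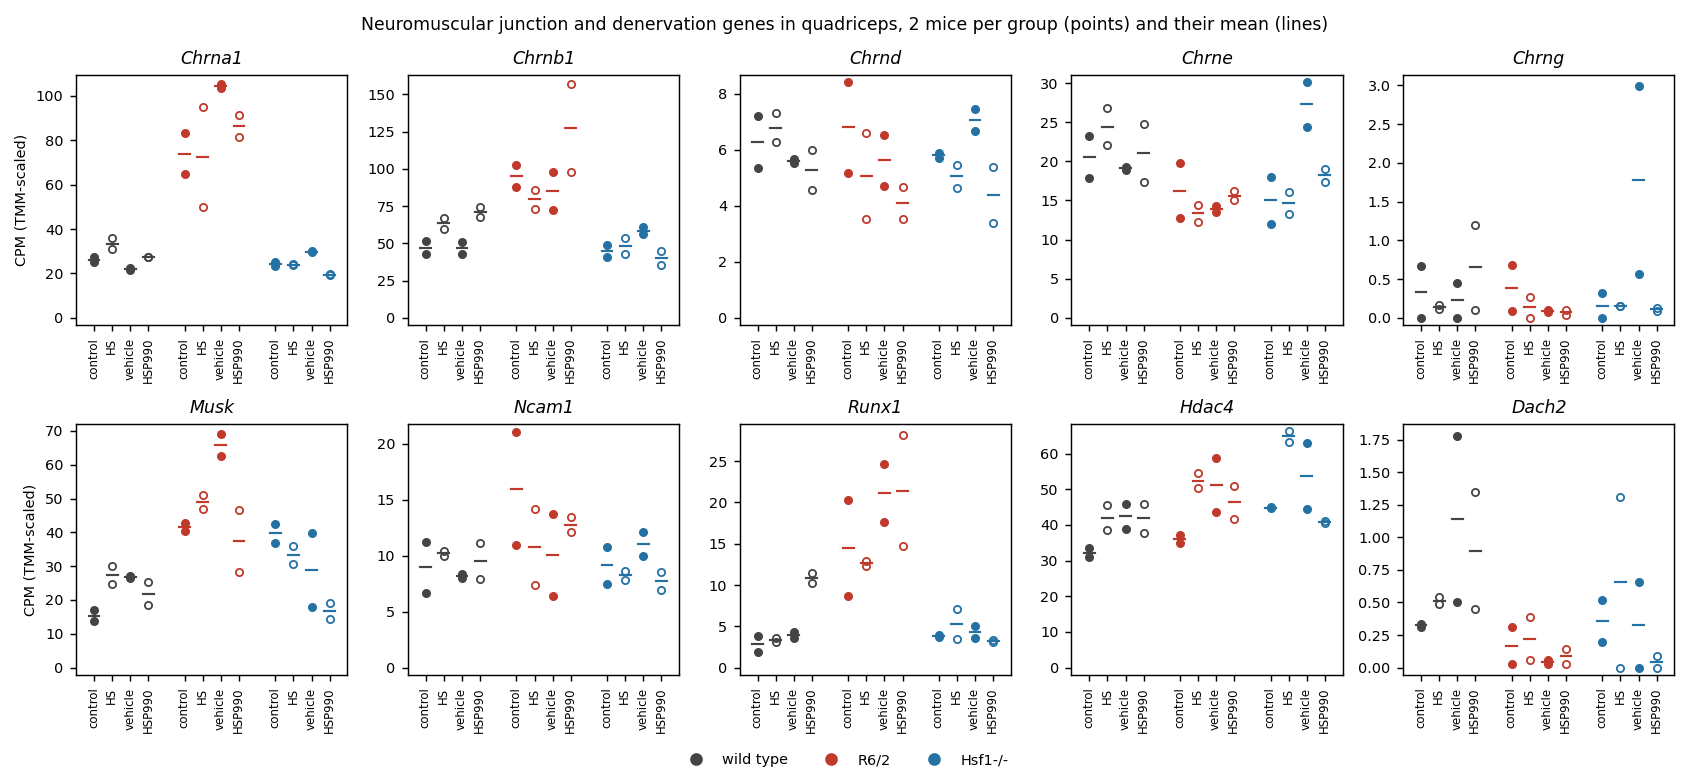
TMM-scaled CPM (vertical axes, linear) of the 10 genes in each mouse. Points are mice, lines the mean of 2 mice, colours the genotypes, and open points the HS and HSP990 mice. For Chrna1 all 8 R6/2 points lie at 49.85 CPM or higher and all 16 other points at 35.91 CPM or lower.

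Among the receptor subunits, Chrna1 encodes the alpha subunit, which binds acetylcholine and is present in both the adult and the fetal receptor. The gene (gene 11435 in the table) lies on the minus strand of chromosome 2 at 73401272 to 73418395 in mm9. Its level was 25.05 and 27.24 CPM in wild type control mice and 21.77 and 22.49 CPM in wild type vehicle mice. It was 64.64 and 83.24 CPM in R6/2 control mice and 103.6 and 105.3 CPM in R6/2 vehicle mice. Every R6/2 mouse was above every wild type mouse, and between the 2 experiments the R6/2 mice themselves did not overlap. The log2 fold change was 1.87 (SE 0.15, 4 mice against 4, edgeR adjusted p = 3.8e-07). Over all treatments, Chrna1 was the only one of the 10 genes for which all 8 R6/2 libraries lay above all 16 others, a pattern that 3.16% of all genes showed. It was also the only one called higher in R6/2 mice in each of the 4 treatments, which 1.61% of all genes were.

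Chrnb1 encodes the beta subunit, also shared by both receptor forms, and lies at 11:69597538-69609445 (mm9, minus strand). Wild type mice had 42.77 and 51.58 CPM (control) and 50.83 and 43.0 CPM (vehicle). R6/2 mice had 102.4 and 87.9 CPM (control) and 72.41 and 97.85 CPM (vehicle), again above all 4 wild type mice. That is a log2 fold change of 0.94 (SE 0.15, edgeR adjusted p = 1.8e-04). For both genes the groups did not overlap, as was so in this upward direction for 14.1% of all genes.

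The other 3 subunit genes were not called. Chrnd, for the delta subunit (1:89087227-89096644, plus strand), stood at 5.351 to 7.203 CPM in the 4 untreated wild type mice and 4.702 to 8.433 CPM in the 4 untreated R6/2 mice. The ranges overlapped fully and the 95% confidence interval of the log2 fold change ran from -0.41 to 0.52. Chrne, for the epsilon subunit of the adult receptor (11:70428385-70432718, minus strand), had 17.81, 23.29, 18.91 and 19.27 CPM in wild type mice and 12.73, 19.78, 13.47 and 14.35 CPM in R6/2 mice. Only the R6/2 control mouse with 19.78 CPM lay within the wild type range. The log2 fold change of Chrne was -0.40 (SE 0.16, edgeR adjusted p = 0.074). Without that mouse, R6/2 control replicate 2, it was -0.57 (edgeR adjusted p = 0.016), and with library size as the only scale it turned to 0.21.

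Chrng, for the gamma subunit of the fetal receptor (1:89102386-89108410, plus strand), had few counts in most libraries. Over all 24 libraries it ranged from 0 to 72 counts, with a median of 0.122 CPM. The highest value was that of Hsf1-/- vehicle replicate 2 (72 counts, 2.989 CPM). Wild type control mice had 0 and 18 counts and wild type vehicle mice 11 and 0, while R6/2 mice had 4 and 27 counts (control) and 4 and 4 counts (vehicle). In the libraries at 0, a count of 0 allows up to 3 counts, or 0.135 CPM in wild type control replicate 1 and 0.116 CPM in wild type vehicle replicate 2. These limits cover counting error only. Mice of 1 group differed widely (0 and 18, 4 and 27 counts), and no difference between the genotypes was called, with an interval of the log2 fold change from -2.99 to 1.84.

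Levels of different genes can be compared only per kilobase of exon. Exon lengths were those of the mm9 annotation, 4386 bases for Chrna1 and 1690 bases for Chrne. The annotation used for the counts is not given. In untreated wild type mice the mean levels were 18.6 CPM per kb for Chrnb1, 11.7 for Chrne, 5.50 for Chrna1, 1.96 for Chrnd and 0.147 for Chrng. In untreated R6/2 mice Chrna1 stood at 20.3 CPM per kb and Chrne at 8.93, so these 2 genes changed places, while Chrnb1 at 35.6 stayed highest and Chrnd at 2.04 and Chrng at 0.124 stayed lowest. Within each of these genotypes the ranges over the 4 mice of neighbouring genes in that order did not meet. In untreated Hsf1-/- mice the order was that of wild type, but Chrnb1 (16.2 to 24.0 CPM per kb) and Chrne (7.13 to 17.9) overlapped. Before division by length Chrna1 already exceeded Chrne in untreated wild type mice (means of 24.1 and 19.8 CPM). The change of places in R6/2 mice therefore depends on these lengths.

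A ratio of 2 genes within a library does not depend on the scaling between libraries. The log2 ratio of Chrna1 counts to Chrne counts was 0.49 and 0.23 in wild type control mice and 0.20 and 0.22 in wild type vehicle mice. In R6/2 mice it was 2.34 and 2.07 (control) and 2.94 and 2.88 (vehicle). The mean was 0.29 ± 0.14 (SD, n = 4) in wild type and 2.56 ± 0.42 (SD, n = 4) in R6/2 mice, a difference of 2.27 (4.83-fold, two-sided exact permutation test, p = 0.029, the smallest that 4 against 4 can give). That test did not keep the 2 experiments apart. The difference was 1.85 within the HS experiment and 2.70 within the HSP990 experiment. In the 4 untreated Hsf1-/- mice the log2 ratio was 0.42 ± 0.46 (SD, n = 4). The log2 ratio of Chrng to Chrne, which follows the exchange of the fetal for the adult subunit, was -7.50 ± 2.66 (SD, n = 4) in wild type and -6.51 ± 1.13 (SD, n = 4) in R6/2 mice (exact permutation test, p = 0.43, with 0.5 counts added to each gene). This ratio rested on so few Chrng counts that its difference of 0.98 became -0.07 with 5 counts added.

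**Figure D2:**
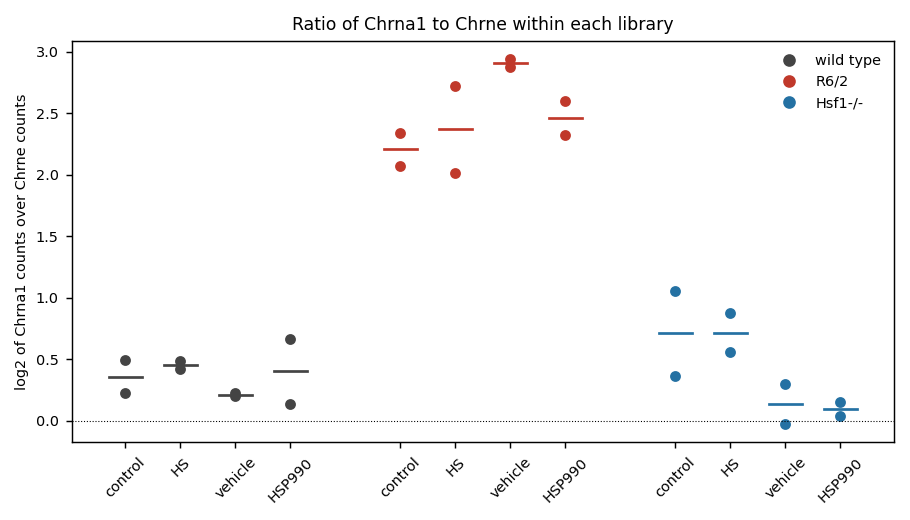
Log2 ratio of Chrna1 counts to Chrne counts (vertical axis) in each of the 24 libraries by genotype and treatment. Points are mice and lines the mean of 2 mice. The 8 R6/2 mice lie at 2.02 or higher, and all wild type and Hsf1-/- mice lie at 1.06 or lower.

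The subunit promoters are shown because the 2 subunit genes that rose and the 2 that mark the adult and fetal receptor can be set side by side. E-boxes (CANNTG) are the sites that myogenin and other myogenic factors bind, and CCGGAA is the N-box that GABP binds in genes active under the nerve terminal. The stretches below run from base -160 to base -31 before the annotated start of transcription and were taken from RefSeq (GRCm38.p6), in which 8 of the 10 genes matched by symbol. They cover chr2:73580369-73580498 for Chrna1, chr11:69795968-69796097 for Chrnb1 and chr11:70619225-70619354 for Chrne, all on the minus strand, and chr1:87205651-87205780 for Chrng on the plus strand. Capitals mark each CANNTG and each CCGGAA, sought on both strands.
Chrna1: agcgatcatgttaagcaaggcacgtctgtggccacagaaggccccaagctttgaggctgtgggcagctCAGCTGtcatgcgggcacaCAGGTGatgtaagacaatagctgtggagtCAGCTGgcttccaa
Chrnb1: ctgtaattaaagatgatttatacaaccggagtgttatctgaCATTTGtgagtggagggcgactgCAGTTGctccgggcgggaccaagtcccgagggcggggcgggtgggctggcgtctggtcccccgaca
Chrne: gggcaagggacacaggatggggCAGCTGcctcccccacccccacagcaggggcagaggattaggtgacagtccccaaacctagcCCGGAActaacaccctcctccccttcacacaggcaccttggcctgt
Chrng: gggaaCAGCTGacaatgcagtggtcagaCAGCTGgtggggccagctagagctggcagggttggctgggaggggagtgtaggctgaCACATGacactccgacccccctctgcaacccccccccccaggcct
Chrna1 and Chrng each held 3 E-boxes, Chrnb1 2 and Chrne 1, and the Chrne stretch alone of these 4 held a CCGGAA, which starts at base -76. The 2 CAGCTG boxes of Chrna1 start at bases -92 and -44 and its CAGGTG at -73. Among 32851 annotated promoter stretches of the same length, 43.6% held at least 1 CANNTG, 2.68% held 3 or more, 7.24% held CAGCTG and 6.89% held CCGGAA. The letters are a description of these windows and no binding was measured. Chrna1 and Chrnb1, which rose, and Chrng, which was not called, all held at least 2 E-boxes, as 12.6% of all stretches did.

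Musk encodes the muscle-specific receptor tyrosine kinase that gathers receptors under the nerve terminal, and lies at 4:58298834-58390290 (mm9, plus strand). Wild type mice had 13.67 and 16.94 CPM (control) and 27.11 and 26.56 CPM (vehicle), and R6/2 mice had 42.88 and 40.29 CPM (control) and 62.59 and 69.22 CPM (vehicle). Both genotypes were higher in the vehicle mice than in the control mice, and within each experiment the R6/2 mice lay above the wild type mice. This was a log2 fold change of 1.37 (SE 0.21, edgeR adjusted p = 1.2e-04). Between wild type vehicle and control mice, which differ in experiment, anaesthesia and Y-linked counts, it was 0.81 and was not called (edgeR adjusted p = 0.23), like the other 9 genes and beside 0.24% of all genes called.

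Ncam1 encodes the neural cell adhesion molecule, which in adult muscle is found at the junction, on satellite cells and along fibres that have lost their nerve. The gene (9:49310257-49607027, minus strand) overlaps exons of Gm11149 on the other strand, and whether the counting used strand is not given in the sources used here. Wild type mice had 6.656, 11.27, 8.029 and 8.337 CPM and R6/2 mice 21.03, 10.94, 6.44 and 13.74 CPM. The highest and the lowest of all 8 values were both from R6/2 mice. On the log2 scale the difference was 0.57 (SE 0.27, edgeR adjusted p = 0.12). Without R6/2 control replicate 2 or R6/2 vehicle replicate 1 it was 0.76 and 0.79 and was called (edgeR adjusted p = 0.044 and 0.035).

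Runx1 encodes a transcription factor known to be low in innervated muscle and high in denervated muscle, and lies at 16:92601712-92826311 (mm9, minus strand), where exons of the lincRNA Gm16801 overlap on the other strand. It showed the largest fold change among the 4 genes called. Wild type mice had 1.844 and 3.769 CPM (control) and 4.346 and 3.567 CPM (vehicle), that is 41 to 105 counts. R6/2 mice had 20.33 and 8.686 CPM (control) and 24.6 and 17.65 CPM (vehicle). The lowest R6/2 mouse was above the highest wild type mouse, and the R6/2 control mice differed by more than 2-fold from each other. The log2 fold change of 2.39 (SE 0.30, edgeR adjusted p = 2.4e-05) ranged from 2.02 to 2.70 with 1 mouse left out. Runx1 is also transcribed in leukocytes. The 14 leukocyte markers summed to 77.77 to 127.7 CPM in the untreated wild type mice and 114.4 to 138.4 CPM in the untreated R6/2 mice, 2 of 14 (C1qa and Lyz2, the latter in 4 of the 8 fits with a mouse left out) were called higher, beside 15.1% of all genes, and 9 of 14 with library size as the only scale. At that scale 64.5% of all genes were called in either direction. None of the 14 markers was at 0 in all of these libraries. Their part in the Runx1 result was not tested.

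Hdac4, a class II histone deacetylase that shuttles into the nuclei of denervated muscle, had 33.55, 30.98, 45.98 and 38.97 CPM in wild type mice and 37.18, 35.07, 43.69 and 58.83 CPM in R6/2 mice. The R6/2 control mice were just above the wild type control mice and the vehicle mice overlapped. A log2 fold change of 0.22 was not called (edgeR adjusted p = 0.19), and its 95% confidence interval ran from -0.04 to 0.47. The gene lies at 1:93829334-94044970 (minus strand), where exons of the lincRNA Gm17418 overlap on the other strand. Dach2, the repressor of Myog in this pathway (X:110411119-110949995, plus strand), was counted 7, 9, 43 and 13 times in wild type mice and 14, 1, 3 and 1 times in R6/2 mice. In CPM every R6/2 mouse lay below every wild type mouse, with 0.308 CPM as the highest R6/2 value and 0.315 CPM as the lowest wild type value. Such a separation downward was seen for 13.7% of all genes. For Dach2 it rests on the TMM scale. Relative to library totals alone, the R6/2 mouse with 14 counts (33704538 in total) lay above the wild type control mice. Those held 7 and 9 counts (24062246 and 29939582 in total). The log2 fold change of Dach2, -2.75 with an interval from -5.16 to -0.33, was not called by edgeR (adjusted p = 0.080). DESeq2 and a fit of only the groups compared gave -2.84 and -2.76 with adjusted p-values of 0.039 and 0.036.

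The genotype difference was also taken within each treatment, 2 mice against 2. In control mice the same 4 genes were called higher in R6/2 mice, with log2 fold changes of 1.50 for Chrna1, 1.01 for Chrnb1, 1.44 for Musk and 2.36 for Runx1, beside 12.4% of all genes called in either direction. In vehicle mice these values were 2.24, 0.86, 1.30 and 2.42, all called, beside 19.2% of all genes. Dach2, not called there by edgeR with all 24 libraries, was called lower in R6/2 vehicle mice by DESeq2 (-4.73, adjusted p = 0.021). The fit of only the groups compared called it too (-4.61, edgeR adjusted p = 0.044). Here single mice and the fit mattered. In a fit of only the groups compared, Runx1 lost its call in the control comparison (edgeR adjusted p = 0.055). Without R6/2 control replicate 1, Chrnb1, Musk and Runx1 lost their calls in the control comparison (edgeR adjusted p = 0.077, 0.053 and 0.063), and without wild type control replicate 1 Chrnb1 and Musk did (0.074 and 0.066). In the vehicle comparison Chrnb1 was lost without R6/2 vehicle replicate 2 (adjusted p = 0.10, edgeR) or wild type vehicle replicate 2 (0.088). None of the 10 genotype differences differed between vehicle and control mice by the test of that difference (0 of 13754 genes were called, 0%). The nearest was Chrna1, with 0.74 (unadjusted p = 0.019 over all genes in edgeR, adjusted p = 0.89).

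After HS, Chrna1 was higher in R6/2 than in wild type mice by 1.12 and Runx1 by 1.92 on the log2 scale. Chrne was lower, the only downward call among the 10 genes in any comparison of the edgeR fit to all 24 libraries. Beside these 3 genes, 12% of all genes were called. Chrne had 14.4 and 12.3 CPM in R6/2 and 26.78 and 22.05 CPM in wild type HS mice, a log2 fold change of -0.87 (SE 0.23, edgeR adjusted p = 0.022). The call held only without wild type HS replicate 2, and without R6/2 HS replicate 1, R6/2 HS replicate 2 or wild type HS replicate 1 its edgeR adjusted p was 0.066, 0.086 and 0.17. With library size as the scale it was -0.30 (edgeR adjusted p = 0.28). Musk, not called after HS by edgeR on the TMM scale, was called higher in R6/2 mice by DESeq2 (0.82, adjusted p = 0.033). Runx1 lost its call without either wild type HS mouse (edgeR adjusted p = 0.087 and 0.051). After HSP990 Chrna1 (1.66) and Chrnb1 (0.85) were called higher in R6/2 mice, beside 9.55% of all genes. Chrnb1 lost its call there without R6/2 HSP990 replicate 2 (edgeR adjusted p = 0.27), wild type HSP990 replicate 1 (0.089) or wild type HSP990 replicate 2 (0.11). Chrna1 kept its call without any mouse in all 4 treatments, at log2 fold changes from 0.58 to 2.26. In a fit of only the groups compared its edgeR adjusted p after HS was 0.097, so that call was lost.

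**Figure D3:**
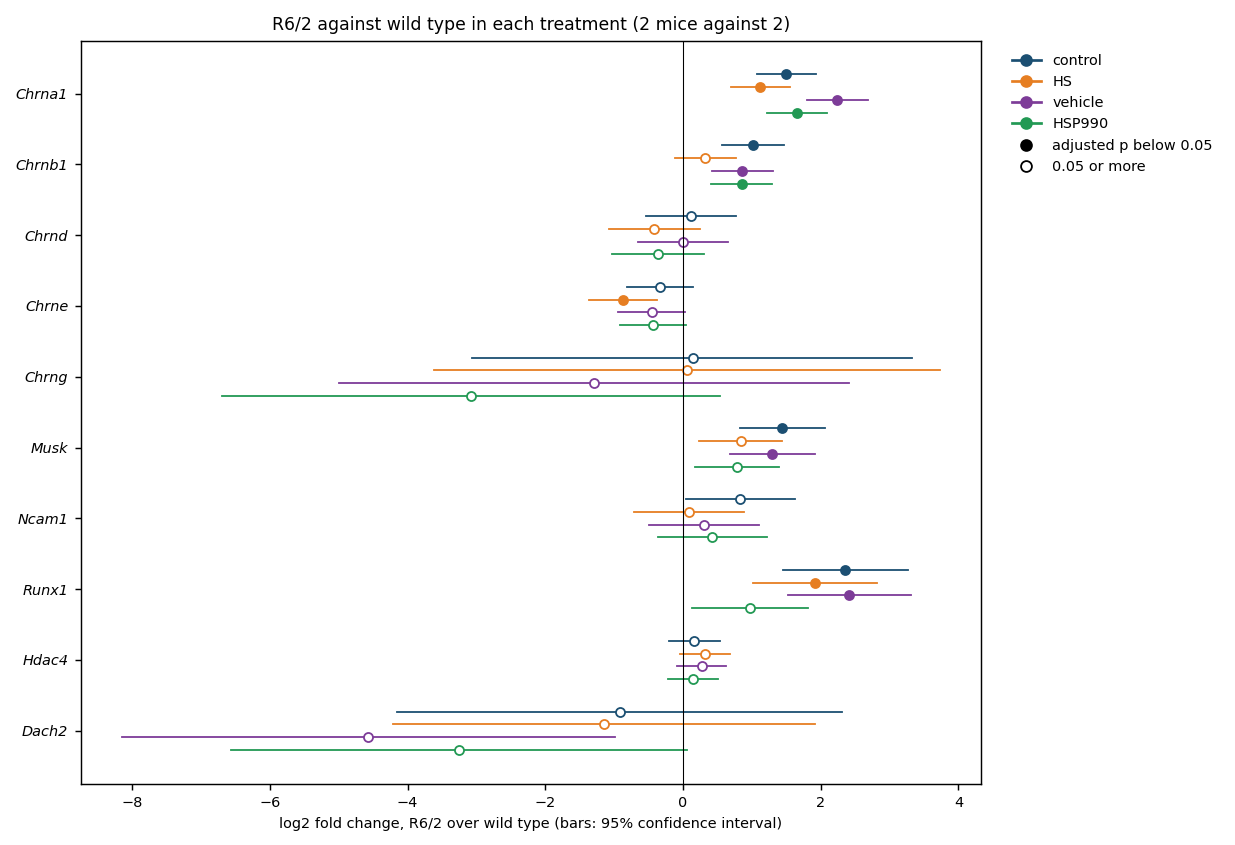
Log2 fold change of R6/2 over wild type mice (horizontal axis) for the 10 genes in each of the 4 treatments, 2 mice against 2. Bars are 95% confidence intervals and filled points have an edgeR adjusted p below 0.05. Chrna1 is filled in all 4 treatments, and the bars of Chrng and Dach2, which had few counts, are the widest.

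Neither treatment moved any of the 10 genes past the threshold in any genotype. In wild type mice 2.06% of all genes were called after HS and 1.85% after HSP990, in R6/2 mice 0.0436% and 1.43%, and in Hsf1-/- mice 0.00727% and 0.218%, so 0 of 10 is near those shares. At an unadjusted p below 0.05, the genes were Musk and Hdac4 after HS in wild type mice, Hdac4 in R6/2 and in Hsf1-/- mice, Chrnb1 and Runx1 after HSP990 in wild type mice, and Chrnb1 and Musk in R6/2 mice. In Hsf1-/- mice after HSP990 they were Chrna1, Chrnb1, Chrnd, Chrne, Chrng, Musk and Hdac4. The share of all genes below this unadjusted threshold was not taken, so these names are not read as a result about the 10 genes.

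Runx1 came nearest to a call. Wild type vehicle mice had 4.346 and 3.567 CPM and wild type HSP990 mice 10.28 and 11.49 CPM, which is 2.75-fold higher (log2 fold change 1.46, SE 0.42, edgeR adjusted p = 0.093). It passed with DESeq2 (adjusted p = 0.017) and in the fit of only the groups compared (0.035). In R6/2 mice, whose vehicle values of 24.6 and 17.65 CPM were already high, HSP990 mice had 14.68 and 28.15 CPM and the 2 groups overlapped. In Hsf1-/- mice the values were 3.531 and 4.982 CPM (vehicle) and 3.397 and 3.153 CPM (HSP990). The response of Runx1 was smaller by 1.84 in Hsf1-/- than in wild type mice (SE 0.60) and by 1.44 in R6/2 mice (SE 0.57), but neither difference was called (edgeR adjusted p = 0.41 and 0.61). In the same wild type mice the leukocyte markers summed to 77.77 and 79.22 CPM (vehicle) and to 117.2 and 163.8 CPM (HSP990). Of the markers, 2 of 14 (Mrc1 and Lyz2) were called higher, beside 1.85% of all genes called in either direction. The part of leukocytes in the Runx1 values was not tested.

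Musk stood at 29.95 and 24.83 CPM in wild type HS mice against 13.67 and 16.94 CPM in their controls, a log2 fold change of 0.84 (SE 0.29, edgeR adjusted p = 0.19) that passed only in the fit of the groups compared (0.025). In R6/2 mice HS gave 51.06 and 46.8 CPM and in Hsf1-/- mice 36.1 and 30.63 CPM, against control values of 42.88 and 40.29 CPM and of 42.48 and 36.96 CPM. The wild type HS mice thus stayed below every R6/2 and every Hsf1-/- mouse of the same experiment. Hdac4 was higher after HS in all 3 genotypes without overlap, as 23.1% (wild type), 15.1% (R6/2) and 20.8% (Hsf1-/-) of all genes were, at log2 fold changes of 0.38 (wild type), 0.54 (R6/2) and 0.54 (Hsf1-/-), and none was called (edgeR adjusted p = 0.39, 0.32 and 0.27). The unadjusted p-values of these 3 comparisons across all genes in edgeR were 0.041, 0.0061 and 0.0064.

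In Hsf1-/- mice all 10 genes had a negative log2 fold change after HSP990, from -0.38 for Runx1 to -4.01 for Chrng. The median was -0.60 beside 0.01 for all genes, and none of the 10 was called. These values come from the same mice, and the share of all genes below 0 was not taken. Chrng had 12 and 72 counts in the vehicle mice and 4 and 3 after HSP990. Its value ran from -4.75 to -2.36 with 1 mouse left out. Without Hsf1-/- vehicle replicate 1, which held all 14 Dach2 counts of the vehicle mice, the value of Dach2 turned to 3.21. Chrna1 had 29.61 and 30.01 CPM (vehicle) and 19.35 and 19.57 CPM (HSP990), a log2 fold change of -0.62 (SE 0.20, edgeR adjusted p = 0.33). Chrnb1 had 60.83 and 56.38 CPM (vehicle) and 35.36 and 44.71 CPM (HSP990), while in wild type mice it had 50.83 and 43.0 CPM (vehicle) and 74.3 and 67.51 CPM (HSP990). The difference between these responses of Chrnb1 was -1.15 (SE 0.30) and was not called by edgeR (adjusted p = 0.17), whereas DESeq2 gave -1.14 (adjusted p = 0.036). The differences of the HS and HSP990 responses between R6/2 or Hsf1-/- and wild type mice were called for 0 of 10 genes in all 4 tests, beside 0.0727% (HS) and 0% (HSP990) of all genes for R6/2 and 0.16% and 0.422% for Hsf1-/- mice.

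**Figure D4:**
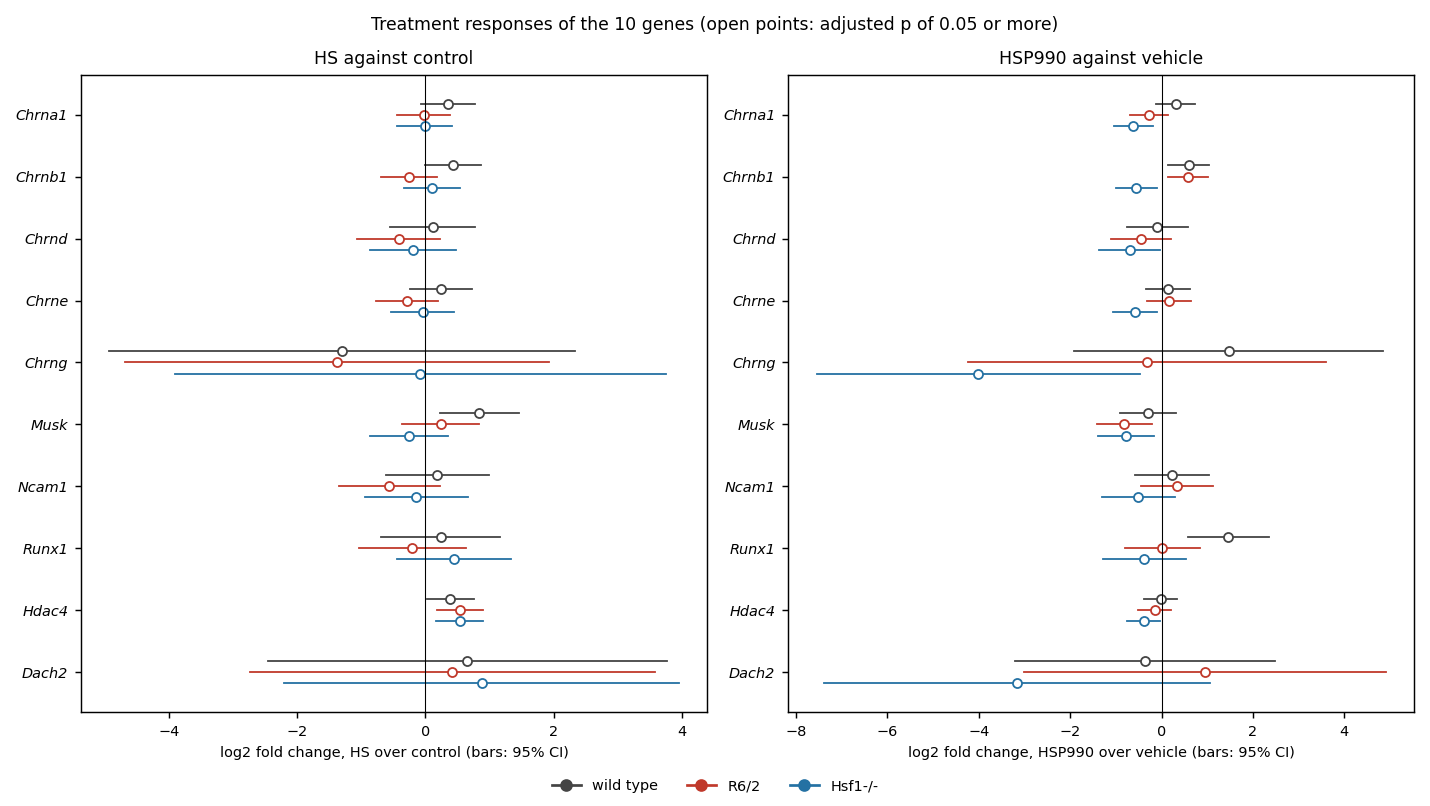
Log2 fold change after HS (left) and HSP990 (right) for the 10 genes in wild type, R6/2 and Hsf1-/- mice (horizontal axes), 2 mice against 2. Bars are 95% confidence intervals and all points are open, since none had an edgeR adjusted p below 0.05. After HSP990 all 10 Hsf1-/- points lie below 0.

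Untreated Hsf1-/- mice were compared with untreated wild type mice to see whether loss of HSF1 alone moved these genes. None of the 10 was called, beside 0.974% of all genes. Musk was the nearest, with 42.48, 36.96, 17.84 and 39.94 CPM in Hsf1-/- mice and 13.67, 16.94, 27.11 and 26.56 CPM in wild type mice (log2 fold change 0.74, SE 0.21, edgeR adjusted p = 0.11). The Hsf1-/- vehicle mouse with 17.84 CPM lay below both wild type vehicle mice, and without it the value was 0.97 (edgeR adjusted p = 0.015). DESeq2 called it too (adjusted p = 0.017). Within the HS experiment the log2 fold change of Musk was 1.37 (edgeR adjusted p = 0.027) and within the HSP990 experiment 0.11 (adjusted p = 0.95, edgeR), a split made after seeing the data. The genotypes also differ in age in both experiments, and in Y-linked counts in the HS experiment, so these cannot be told apart from the genotype. Chrna1, Chrnb1 and Runx1 stood at 27.0 ± 3.33, 51.8 ± 8.70 and 4.06 ± 0.64 CPM (SD, n = 4) in untreated Hsf1-/- mice, within 1.21-fold of wild type.

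The other genes of the junction were read from a list of 34 postsynaptic genes, 31 of which were tested. In untreated R6/2 mice 5 rose and 6 fell (35.5% called, beside 30.5% of all genes), with a median log2 fold change of 0.07. Lrp4, the receptor for agrin that works with Musk, rose from 2.37 ± 0.47 to 6.48 ± 0.93 CPM (SD, n = 4, log2 fold change 1.45, edgeR adjusted p = 1.1e-04) and was called in each of the 4 treatments. Erbb2, a neuregulin receptor, rose by 0.80 (edgeR adjusted p = 0.003). Acetylcholinesterase (Ache), which ends the signal in the cleft, fell from 74.9 ± 7.20 to 49.1 ± 10.1 CPM (-0.61, edgeR adjusted p = 0.0025). Etv4, an ETS transcription factor, fell by 1.10 and Sntb1, a syntrophin, by 0.97. With 1 of the 8 mice left out, 3 to 5 genes of the list rose and 3 to 5 fell, and of those named Sntb1 alone lost its call, in 4 of the 8 fits. With library size as the scale 23 rose and 1 fell, beside 64.5% of all genes called in either direction, and Ache stood at -0.01.

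A list of 23 genes that respond to denervation was read in the same way. In untreated R6/2 mice 7 rose and 2 fell (39.1%, beside 30.5% of all genes), with a median of 0.31. With 1 mouse left out 5 to 7 rose and 2 to 5 fell, 5 without R6/2 control replicate 2 and 4 without R6/2 vehicle replicate 2, and with library size as the only scale 13 rose and 1 fell. At that scale 64.5% of all genes were called in either direction. Cdkn1a, a cell cycle inhibitor, rose from a range of 14.94 to 41.46 CPM to one of 52.32 to 342.2 CPM (log2 fold change 2.61, edgeR adjusted p = 1.6e-04). Ampd3, an AMP deaminase that is high in wasting muscle, rose from 29.14 to 31.21 CPM to 89.42 to 190.6 CPM (2.25, edgeR adjusted p = 5.6e-07). Myog, which encodes myogenin, stood at 7.018 to 12.32 CPM in wild type and 7.508 to 26.04 CPM in R6/2 mice, and its call (1.08, edgeR adjusted p = 0.036) remained in 1 of the 8 fits with a mouse left out. The lysosomal protease gene Ctsl rose by 1.03. Cardiac actin (Actc1), known to rise in denervated muscle, fell by 2.50, and Igfbp5, for an insulin-like growth factor binding protein, fell by 1.07. The ubiquitin ligase genes Trim63 and Fbxo32, which mark atrophy, were not called (0.54 and -0.58, edgeR adjusted p = 0.099 and 0.060).

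**Figure D5:**
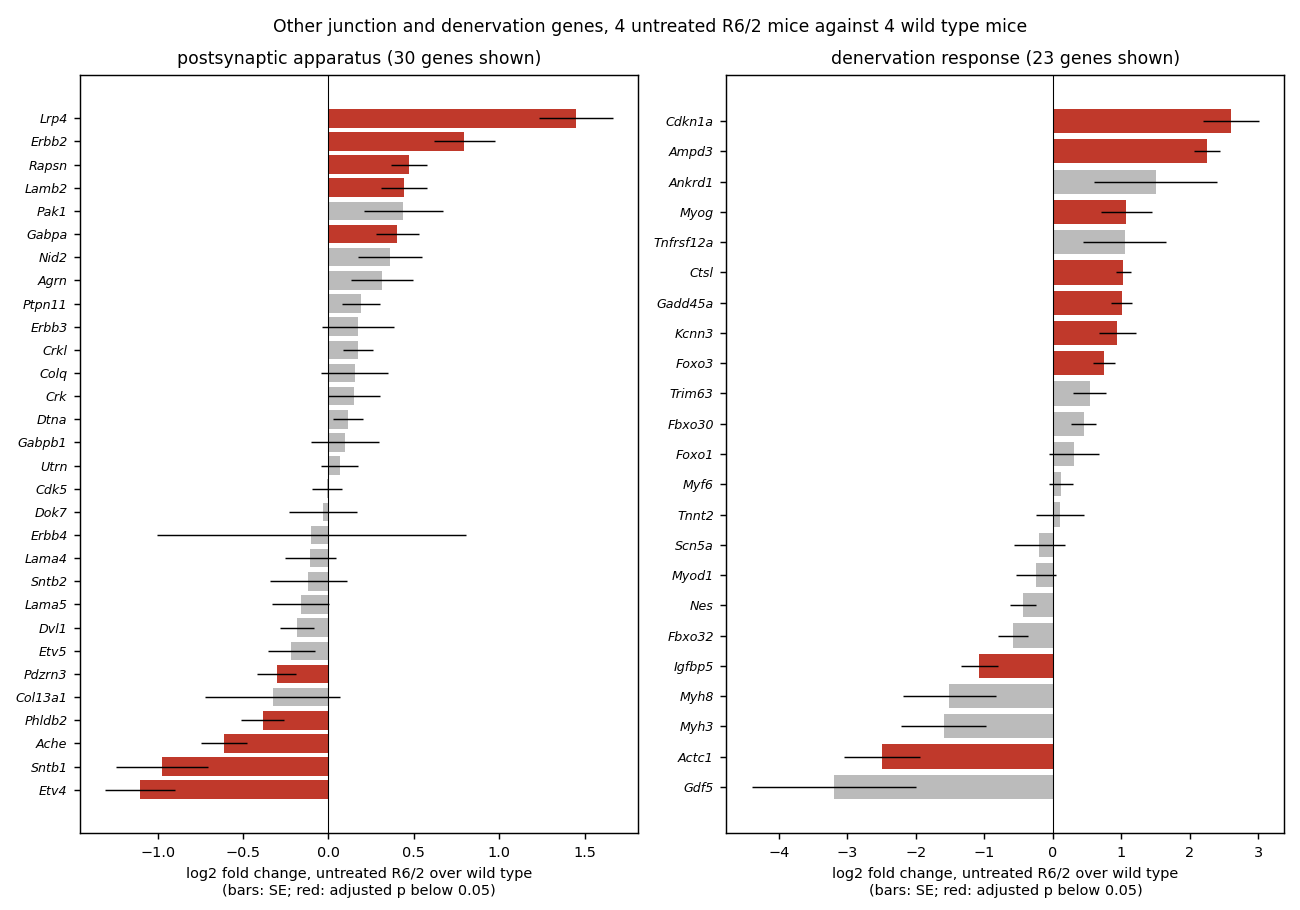
Log2 fold change between 4 untreated R6/2 and 4 untreated wild type mice (horizontal axes) for 30 of the 31 postsynaptic genes tested (left) and 23 denervation response genes (right). Bars show the value with its SE, and red bars have an edgeR adjusted p below 0.05. Lrp4, at 1.45, is the highest on the left and Cdkn1a, at 2.61, on the right.

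The partners of Hdac4 and Dach2 made a list of 21 genes, 20 of which were tested, and 3 rose and 2 fell in untreated R6/2 mice (25%, beside 30.5% of all genes). The share of all genes was 64.5% with library size as the only scale. With library size as the only scale 16 rose and 1 fell, and without wild type control replicate 1 or R6/2 vehicle replicate 2 only 1 rose. Sik1, a kinase that keeps class II deacetylases out of the nucleus, was higher by 1.23 (edgeR adjusted p = 0.018, called in 4 of the 8 fits with a mouse left out). Camk2a and Camk2b, calcium-dependent kinases that do the same, fell by 1.13 and 0.76, while Map3k4 and Camk2d rose by 0.47 and 0.36, the latter called in 3 of those 8 fits. Among acetylcholine receptor subunits of neurons, 5 of 11 were tested. Chrna9 rose from 0.235 ± 0.137 to 5.38 ± 2.91 CPM (SD, n = 4, log2 fold change 4.32, edgeR adjusted p = 1.1e-05) and Chrnb2 from 0.536 ± 0.174 to 2.39 ± 1.10 CPM (2.14, adjusted p = 6.0e-04, edgeR). Both kept their calls without any of the 8 mice. The highest R6/2 value of Chrna9 was 8.947 CPM. Chrna3, Chrna5, Chrna6 and Chrnb3 were at 0 in all untreated wild type and R6/2 libraries.

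Markers of the other cells at the junction were read beside these values. The 11 Schwann cell markers summed to 129.5 to 186.7 CPM in untreated wild type and 132.1 to 180.8 CPM in untreated R6/2 mice, and 1, Ngfr, rose (2.06). Of 12 motor axon markers 7 were tested, Nefl rose from a mean of 0.0207 to 0.305 CPM and Stmn2 fell by 0.54 on the log2 scale (called in 3 and 5 of the 8 fits with a mouse left out), and Chat, Mnx1 and Slc18a3, which define motor neurons, were at 0 in all of these libraries. The 8 satellite cell markers, whose cells also transcribe Ncam1, summed to 54.87 to 62.75 CPM in wild type and 71.67 to 92.59 CPM in R6/2 mice. Of these markers 4 of 8 rose, beside 15.1% of all genes (Pax3, Pax7, Fgfr4 and Chodl, of which Pax7 alone was called in all 8 fits with a mouse left out and Chodl in none). With 1 mouse left out 1 to 5 of the 8 rose, the lowest without wild type control replicate 2, and with library size as the only scale all 8. Of 8 fibroblast markers, which summed to 998.6 to 1585 CPM in wild type and 855.8 to 1314 CPM in R6/2 mice, Pdgfra rose, a call kept in none of the 8 fits with a mouse left out. With library size as the only scale, where all 8 satellite cell markers rose, 64.5% of all genes were called in either direction. No marker of the Schwann, satellite, leukocyte or fibroblast lists was at 0 in all of these libraries. The part of these cells in the levels of the 10 genes was not tested.

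After treatment, members of these lists moved where the 10 genes were not called. In wild type mice HS raised 5 of 23 denervation response genes (21.7%, beside 2.06% of all genes called in either direction), among them Foxo1 (2.46), Cdkn1a (2.44) and Trim63 (2.18). With any 1 of the 4 mice left out 0 or 1 gene of the list was called, 0 without wild type control replicate 1 and 1 without each of the others. HSP990 lowered 4 of 23 in R6/2 mice (17.4%, beside 1.43% of all genes called in either direction), among them Cdkn1a (-2.66), Trim63 (-1.44) and Ampd3 (-1.27). That number was 4 without R6/2 vehicle replicate 1, 1 without R6/2 HSP990 replicate 2 and 0 without R6/2 vehicle replicate 2 or R6/2 HSP990 replicate 1. Of the partners, Sik1 rose (2.72) and Dach1, the paralog of Dach2, fell (-1.58) after HS in wild type mice, and Dach1 rose (1.69) after HSP990. In the same HS comparison the log2 fold changes of Dach2 and Hdac4 were 0.65 and 0.38, and neither was called.

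The genes whose pattern was most like that of each gene were sought over the 12 group means of log2(CPM + 0.5), among 11102 genes of at least 1 CPM. For Chrna1 they were Mkrn1 (Pearson's r = 0.975), Bahd1 (0.975) and Lrp4 (0.972), for Runx1 Flrt1 (0.974), Rps6ka4 (0.965) and Tcf7 (0.961), and for Musk Cyfip1 (0.947), Tax1bp1 (0.943) and Osbpl1a (0.942). For Chrnb1 they were Sat2 (0.954), Slc29a1 (0.939) and Panx1 (0.928), and for Chrne Serhl (0.905), Ache (0.894) and Fam174c (0.858). Dach2 was most like Cdk18 (0.937), Fbxo32 (0.885) and Rap1gap (0.884). Chrnd was most like Gstm5, Hdac3 and Gas8 (0.857 to 0.833), Ncam1 like Fibp, Hoxc4 and Os9 (0.872 to 0.827), Hdac4 like Man2a2, Dctn1 and Brap (0.846 to 0.836) and Chrng like Cdh23, Ccndbp1 and Aif1l (0.818 to 0.788). The group means share the genotype difference and the libraries, so a value near 1 can come from the R6/2 groups alone. Across the 24 mice r between Chrna1 and Runx1 was 0.827, and it was 0.12 over the 16 mice that are not R6/2 and 0.319 over the 8 R6/2 mice. For Chrna1 and Chrnb1 these values were 0.86, 0.78 and 0.215.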

How the data were processed

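Polyadenylated RNA of quadriceps femoris was sequenced in 24 libraries from as many mice. The authors made strand-specific paired-end libraries, aligned the reads to mm9 with Bowtie and deposited raw read counts per gene under NCBI gene identifiers, not normalized. The counting program and its annotation are not given in the sources used here. All 24 columns were matched to samples by their labels, and 18594 of 18669 identifiers were matched to a symbol.

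A gene was tested if 10 or more libraries held 2 or more of its counts. Library sizes were scaled by TMM and CPM computed from them. One negative binomial model with a mean for each of the 12 groups (12 residual degrees of freedom) was fitted to all 24 libraries, and 18 comparisons were tested with the quasi-likelihood test of edgeR 4.0.16 (R 4.3.3, limma 3.58.1). P-values were adjusted by Benjamini-Hochberg over the 13754 genes of each comparison, and a gene was called at an adjusted p below 0.05. Standard errors were taken as the log2 fold change over the root of the F statistic. Log2 ratios of genes within a library had 0.5 counts added and were compared by exact two-sided permutation tests. The scripts were tested on simulated counts first. Alternatives were DESeq2's size factors in edgeR, library size as the only scale, no filter and filterByExpr, a fit of only the groups compared, the replicate number as a block, DESeq2 1.42.0, and each mouse left out. Where a group was left with 1 mouse, that mouse was taken to vary like the others.

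The 10 genes, the other gene lists and the marker lists were chosen with earlier results of these data known. The text names all 10 genes, up to 6 called genes of each other list in the untreated R6/2 comparison and up to 3 in each other comparison, by size of change, the 3 genes most like each of the 10, and markers at or near 0. Trim63 and Fbxo32, which were not called, were named after their values were seen. The values of 1 postsynaptic gene, which is part of the list's counts, are not reported here. Totals of 22450177 to 46599238 counts per library gave 0 to 72 counts of Chrng and 0 to 43 of Dach2. Promoter sequences came from RefSeq (GRCm38.p6) and gene positions from the mm9 annotation.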

Additional observations from a re-analysis of the deposited data

Results flagged for a closer look

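Single mice stood far from the other 3 of their genotype among the untreated mice in 4 of the 30 sets of 4 that were examined (Dixon's test at the 95% level), where chance gives about 1 in 20. Chrng was 0.6838 CPM (27 counts) in R6/2 control replicate 2 and 0.08152 to 0.09846 CPM in the other 3 untreated R6/2 mice. Dach2 was 0.3083 CPM (14 counts) in R6/2 control replicate 1 and 0.02462 to 0.06114 CPM in the others. In wild type mice Dach2 was 1.78 CPM in vehicle replicate 1 and 0.3148 to 0.5041 CPM in the others. Hdac4 was 62.95 CPM in Hsf1-/- vehicle replicate 1 and 44.42 to 44.94 CPM in the others.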

How the results depend on the processing

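Of the 10 genes, 7 were called between untreated R6/2 and wild type mice with library size as the only scale, 5 after HS and 6 after HSP990, beside 64.5%, 47.1% and 43.9% of all genes. In a fit of only the groups compared, 1 gene was called between R6/2 and wild type mice after HS (Runx1), 1 after HSP990 (Chrna1), and 1 each for the wild type responses to HS (Musk) and HSP990 (Runx1). DESeq2 called 1 gene between untreated Hsf1-/- and wild type mice (Musk), 1 for the wild type response to HSP990 (Runx1) and 1 for its difference in Hsf1-/- mice (Chrnb1). Within the HS experiment 1 (Musk) was called for Hsf1-/- mice, an alternative added after seeing the data. Between R6/2 and wild type mice DESeq2 also called Dach2 (untreated and vehicle) and Musk (HS). The fit of only the groups compared also called Dach2 (untreated and vehicle). With 1 mouse left out, the genes called between R6/2 and wild type mice numbered 4 to 6 (untreated), 1 to 4 (control), 1 to 2 (HS) and 1 to 2 (HSP990), and those between untreated Hsf1-/- and wild type mice 0 to 1. The difference in the log2 ratio of Chrna1 to Chrne was 1.85 and 2.7 within the HS and HSP990 experiments and 2.14 to 2.43 with 1 mouse left out. That of Chrng to Chrne became -0.0687 with 5 counts added, was 0.161 to 1.79 with 1 mouse left out and has no value without added counts. Of 1270 other values under other settings, 1240 kept their side of the threshold, as did 981 of 1000 with 1 mouse left out. No called value changed sign, and 30 and 112 that were not called did. The causes were not tested. Chrng and Dach2, with few counts, differed widely between mice of 1 group.

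Mice of equal replicate number were mostly not alike between groups: the correlation of deviations exceeded 0.1 in 10 of 66 pairs of groups (median -0.02, from -0.333 to 0.346). No record of litter or batch was used, so shared litters or batches were not tested. With the replicate block, 4 genes were called between untreated R6/2 and wild type mice, as without it. Paired by number, the Chrna1 to Chrne difference was 2.27 (exact sign-flip test, p = 0.12, the smallest that 4 pairs can give).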
